A study of Mus musculus with 8 samples.

Results

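Genes of Nodal and Lefty signalling were followed in mouse embryonic stem cells (ESCs) depleted of Tip60, of Hdac6 or of both. The 9 genes were Nodal, Gdf3, Acvr2b, Tdgf1, Foxh1, Lefty1, Lefty2, Smad7 and Skil, out of 18059 genes that could be tested, and 13 probes of the arrays carried their names. Lefty2 was selected on its own measured values, a higher signal than in control cells in every knockdown. The other 8 were chosen for their place in the pathway. For that reason Lefty2 is described with no test wherever control cells enter a comparison.

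All samples were E14 ESCs, a mouse line grown without feeder cells in medium with serum and LIF, the cytokine that keeps ESCs undifferentiated. They were infected with lentiviruses that express a short hairpin RNA and were collected 72 h later. Control KD cells carried a hairpin against EGFP, Tip60 KD cells a hairpin against Kat5 (the gene of the Tip60 acetyltransferase), Hdac6 KD cells a hairpin against the deacetylase gene Hdac6, and double KD cells received both. KD stands for knockdown. According to the methods, the most effective of several hairpins was used for each gene, so that each knockdown rests on 1 hairpin. Each of the 4 groups had 2 arrays, A and B, and slide A and slide B each held 1 array of every group. The methods describe the arrays of a group as biological replicates, and whether A and B were separate infections is not stated, so p-values measure the spread between these samples.

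Nodal is a secreted ligand of the TGF-beta family. It binds activin receptors together with the co-receptor Cripto, the product of Tdgf1, and the receptors activate Smad2 and Smad3, which enter the nucleus and act on genes with Smad4 and the DNA-binding protein Foxh1. Nodal, Lefty1 and Lefty2 are themselves known targets of this route, and the Lefty proteins are secreted antagonists that hold Nodal back. In ESCs the pathway is active at a modest level and is known for its part in the step towards mesoderm and endoderm.

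The probes define what was measured. The start of the probe is shown 5′ to 3′ for the ligand and its paired antagonists, because Lefty1 and Lefty2 are close relatives that lie near each other on chromosome 1. All letters are in lower case, since no part of a probe is singled out.

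Nodal, chr10:60887790-60887849 (+): ttattagattataaacgagccatttggttc

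Lefty1, chr1:182868137-182868196 (+): ctttcatgcaaatctgaagtgctcattata

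Lefty2, chr1:182828893-182828952 (+): aagggtgtacctgagtctttctggccattg

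These are the first 30 of 60 bases, with positions of the whole probe on mouse build mm9 as the array files give them. The longest run of bases that the complete Lefty1 and Lefty2 probes shared on either strand was 5. None of the 13 probes shared a run of 20 bases with a probe of another gene on the array. Probes were compared only with probes, and likeness to other transcripts or to repeats was not searched for. No annotation of mm9 was used here, so the exon that each probe lies in is not stated.

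Signals below are log2 values of the background-subtracted fluorescence over the 75th percentile of the same array, so that 0 is the level of the 75th percentile. Probes differ in how well they bind, and a level is therefore never compared between genes. A gene was called changed at a Benjamini-Hochberg adjusted p under 0.1 in limma, over all genes tested. Against control KD, calls were common over all genes. In Tip60 KD 40.4% of 18059 genes were called, 19.1% higher and 21.3% lower. In Hdac6 KD the share was 30.0%, 14.0% higher and 16.0% lower. In double KD it was 33.7%, with 16.0% higher and 17.6% lower. The arrays differed in quality. Between 21896 and 40609 of 43020 spots were well above background, and the median background subtracted was 37.2 to 41.4 intensity units on 4 arrays, 61.0 on control A and 86.9 to 114.3 on the other 3. All 13 probes of the 9 genes passed the filter on low signals, 12 of them with no value at the common floor on any array.

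The knockdowns themselves were seen in the targeted genes. Kat5 signal fell by 1.37 on the log2 scale in Tip60 KD (adjusted p = 0.00108) and by 1.31 in double KD (adjusted p = 0.00196). Hdac6 signal fell by 2.50 in Hdac6 KD (adjusted p = 0.000278) and by 1.88 in double KD (adjusted p = 0.000647), and the double KD arrays exceeded the Hdac6 KD arrays by 0.62 (SE 0.07, adjusted p = 0.0132), a call that was lost without Hdac6 B (adjusted p = 0.108) and in a fit of only the arrays compared (0.131). Hdac6 also fell by 0.45 in Tip60 KD (adjusted p = 0.00502). The cells had the markers of ESCs. All 8 markers listed for ESCs were tested, and the summed signal of the 7 measured on every array was 297.9 to 299.4 times the 75th percentile in control KD, 309.0 to 310.6 in Tip60 KD, 284.9 to 285.7 in Hdac6 KD and 303.7 to 315.6 in double KD. Single markers moved within that sum. Pou5f1, the gene of the core pluripotency factor Oct4, rose by 0.99 in Tip60 KD (adjusted p = 0.00256), by 0.46 in Hdac6 KD (adjusted p = 0.0427) and by 0.62 in double KD (adjusted p = 0.0155). Of the 8 markers, 3 were called higher and 1 lower in Tip60 KD (Pou5f1, Zfp42 and Utf1 against Dppa5a), 1 higher in Hdac6 KD (Pou5f1), and 2 higher and 1 lower in double KD (Pou5f1 and Zfp42 against Sox2). With the replicate letter as a block, Esrrb was also called higher and Sox2 lower in Tip60 KD (adjusted p = 0.0564 and 0.0155). Nanog and Dppa5a were then called lower in Hdac6 KD (0.0673 and 0.0361). In double KD the block added Klf4 and Esrrb as higher and Dppa5a as lower (0.0522, 0.0308 and 0.0925). The part of the markers in the changes of the 9 genes was not tested.

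**Figure D1:**
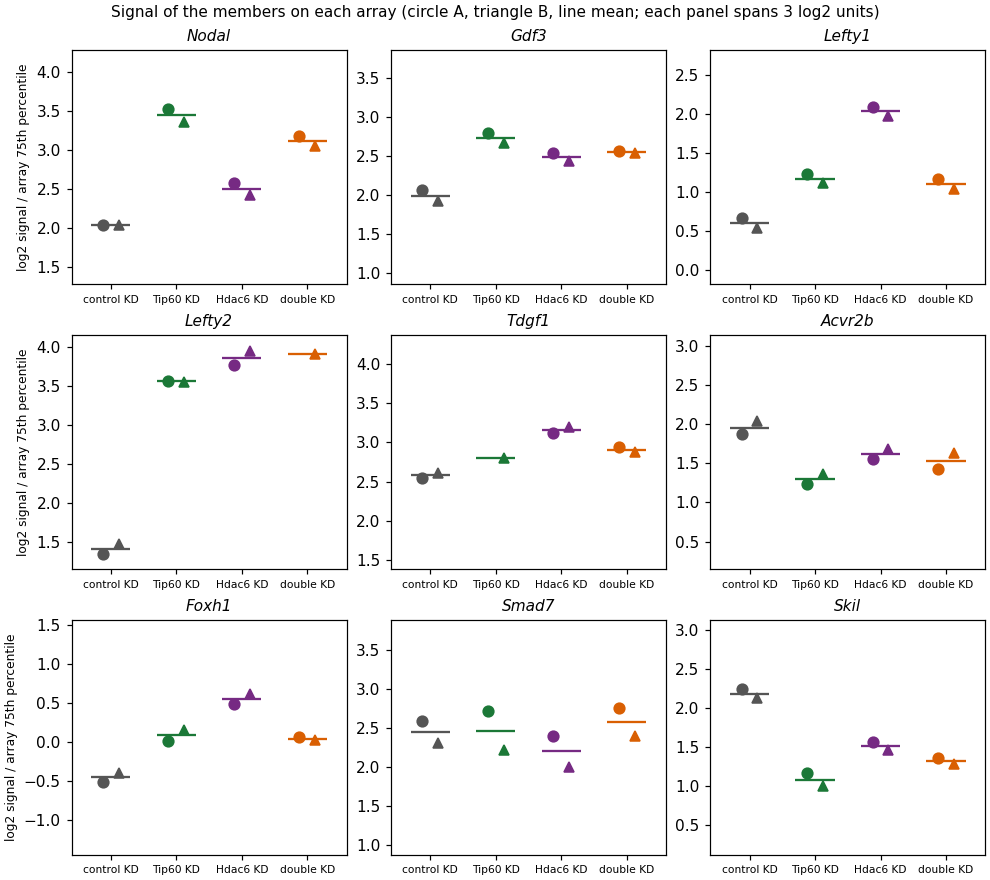
Signal of the 9 genes on each array, as log2 of the signal over the 75th percentile of the array. Circles are replicate A, triangles replicate B and lines the group mean, every panel spans 3 log2 units, and Lefty2 in double KD and Tdgf1 in Tip60 KD have 1 array because the other spot was marked as an outlier. The Nodal values of the 3 knockdowns lie above both control KD arrays, and those of Skil and Acvr2b below them.

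Nodal and Gdf3, the ligands among the members, rose in all 3 knockdowns, Gdf3 by the brighter of its 2 probes. Nodal stood at 2.04 on both control KD arrays. In Tip60 KD its signal was 3.52 and 3.36 on arrays A and B, after Hdac6 knockdown 2.58 and 2.42, and after both 3.18 and 3.06. The groups did not overlap, and the order from low to high was control KD, Hdac6 KD, double KD and Tip60 KD. Against control KD, Nodal rose by 1.40 (SE 0.10, 2.64-fold, adjusted p = 0.000786) in Tip60 KD, by 0.46 (SE 0.10, 1.38-fold, adjusted p = 0.026) in Hdac6 KD and by 1.08 (SE 0.10, 2.11-fold, adjusted p = 0.00219) in double KD. Among the increases over all 18059 genes, that of Nodal ranked 144, 1876 and 255 in these knockdowns. The call in Hdac6 KD was lost without control A, control B or Hdac6 A (adjusted p 0.104 to 0.120), with the change between 0.38 and 0.46. These are bulk samples, in which more cells that express a gene and more RNA per cell cannot be told apart.

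In the direct comparisons of Nodal, the signal was 0.94 higher in Tip60 KD than in Hdac6 KD (SE 0.10, 95% interval 0.70 to 1.19, adjusted p = 0.00464). Double KD also exceeded Hdac6 KD, by 0.62 (95% interval 0.37 to 0.86, adjusted p = 0.0303). That second difference lost its call when any 1 of the Hdac6 KD or double KD arrays was left out, with an adjusted p of 0.109 to 0.170. Between double KD and Tip60 KD the difference was -0.32 (95% interval -0.57 to -0.08), which did not pass the threshold (adjusted p = 0.180) but did with the replicate letter as a block (adjusted p = 0.0291).

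Gdf3, a ligand of the same family that can act through the same co-receptor, was read by 2 probes. Its brighter probe gave 2.06 and 1.92 in control cells, 2.79 and 2.66 after Tip60 knockdown, 2.53 and 2.43 after Hdac6 knockdown, and 2.57 and 2.54 after both. Every knockdown array lay above both control arrays, while Hdac6 KD and double KD lay close together. The increases were 0.73 (SE 0.09, adjusted p = 0.00289) in Tip60 KD, 0.49 (adjusted p = 0.0168) in Hdac6 KD and 0.56 (adjusted p = 0.0097) in double KD. The 3 knockdowns were not separated by the threshold. By the brighter probe, Tip60 KD exceeded Hdac6 KD by 0.24 (95% interval 0.02 to 0.47, adjusted p = 0.139, and 0.0231 with the block), and double KD minus Tip60 KD was -0.17 (95% interval -0.40 to 0.05, adjusted p = 0.411, and 0.0962 with the block). The second probe, tested on its own, went the other way in both. It gave -0.27 for Tip60 KD minus Hdac6 KD (adjusted p = 0.226, and 0.0137 with the block). For double KD minus Tip60 KD it gave 0.32 (adjusted p = 0.258, and 0.0197 with the block).

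The receptor gene moved the other way. Acvr2b encodes a type II activin receptor that binds Nodal and activins. Its signal was 1.87 and 2.05 in control cells, 1.24 and 1.37 after Tip60 knockdown, 1.55 and 1.68 after Hdac6 knockdown, and 1.43 and 1.64 after both. All 6 knockdown arrays were below both control arrays, and Hdac6 KD and double KD overlapped. Acvr2b fell by 0.66 in Tip60 KD (SE 0.12, adjusted p = 0.00858), by 0.34 in Hdac6 KD (adjusted p = 0.0911) and by 0.42 in double KD (adjusted p = 0.0456). The change in Hdac6 KD lay close to the threshold. Leaving out control A, control B, Tip60 A, Tip60 B, Hdac6 A or Hdac6 B raised its adjusted p to between 0.122 and 0.308, and in double KD the call was lost without control B (0.182) or double A (0.171). Other normalisations of the arrays also ended both calls, with adjusted p-values of 0.231 to 0.265 in Hdac6 KD and 0.173 to 0.190 in double KD.

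Tdgf1 encodes Cripto, the co-receptor without which Nodal signals poorly. Its brightest probe gave 2.55 and 2.61 in control cells, 2.81 on the remaining Tip60 KD array, 3.12 and 3.20 after Hdac6 knockdown, and 2.94 and 2.88 after both. The software had marked the spot of array Tip60 A as an outlier, and its value, 2.54 if kept, was left out. Tdgf1 rose by 0.58 in Hdac6 KD (SE 0.08, 1.49-fold, adjusted p = 0.0112) and by 0.33 in double KD (adjusted p = 0.0438). In Tip60 KD the difference was 0.22 (95% interval -0.03 to 0.48, adjusted p = 0.160). Hdac6 KD exceeded Tip60 KD, with a difference of -0.35 for Tip60 KD minus Hdac6 KD (SE 0.10, adjusted p = 0.0779), in which Tip60 KD is 1 array assumed to vary like the other groups. The call in double KD and the last one depended on single arrays. The former was lost without control A, control B, double A or double B (adjusted p 0.112 to 0.169), and the latter without control A, control B, Hdac6 A, Hdac6 B, double A or double B (0.119 to 0.253) and with quantile normalisation (0.190).

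Foxh1, the forkhead protein that brings activated Smads to DNA, rose in all 3 knockdowns and most in Hdac6 KD. Its probe lies at chr15:76498767-76498826 (-, mm9) and is given in full.

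Foxh1: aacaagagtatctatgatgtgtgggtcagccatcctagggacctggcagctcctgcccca

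The signal was -0.51 and -0.40 in control cells, 0.01 and 0.16 after Tip60 knockdown, 0.49 and 0.62 after Hdac6 knockdown, and 0.06 and 0.03 after both. Tip60 KD and double KD overlapped, and both lay between control KD and Hdac6 KD. Foxh1 rose by 1.01 in Hdac6 KD (SE 0.09, 2.01-fold, adjusted p = 0.0028), by 0.54 in Tip60 KD (adjusted p = 0.00825) and by 0.50 in double KD (adjusted p = 0.0144). In the direct comparison with Hdac6 KD it was lower by 0.47 in Tip60 KD (difference -0.47, 95% interval -0.70 to -0.24, adjusted p = 0.0231) and lower in double KD as well (difference -0.51, 95% interval -0.74 to -0.28, adjusted p = 0.0388). The former call was lost without Hdac6 B (adjusted p = 0.121) and the latter without any 1 of the Hdac6 KD or double KD arrays (0.140 to 0.203). Double KD and Tip60 KD differed by -0.04 (95% interval -0.27 to 0.19, adjusted p = 0.967).

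The paired antagonists Lefty1 and Lefty2 both stood higher in every knockdown than in control cells. Lefty1 gave 0.66 and 0.54 in control cells, 1.23 and 1.11 after Tip60 knockdown, 2.09 and 1.97 after Hdac6 knockdown, and 1.16 and 1.04 after both. Hdac6 KD stood apart from all other arrays, and Tip60 KD and double KD overlapped. Lefty1 rose by 1.43 in Hdac6 KD (SE 0.10, 2.69-fold, adjusted p = 0.00166), which was the 38th largest increase of 18059 genes, by 0.57 in Tip60 KD (1.48-fold, adjusted p = 0.00749) and by 0.50 in double KD (1.41-fold, adjusted p = 0.0155). The difference from Hdac6 KD was -0.86 in Tip60 KD (95% interval -1.10 to -0.63, adjusted p = 0.0052) and -0.93 in double KD (95% interval -1.17 to -0.69, adjusted p = 0.0112). No single array removed either of these calls, and the second was lost in a fit of only the arrays compared (adjusted p = 0.121). Double KD and Tip60 KD differed by -0.07 (95% interval -0.30 to 0.17, adjusted p = 0.861).

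Lefty2 was the gene selected on these values, and its levels against control KD are given as a description. The signal was 1.35 and 1.47 in control cells, 3.57 and 3.55 after Tip60 knockdown, 3.77 and 3.95 after Hdac6 knockdown, and 3.91 on array B of double KD. The spot of double A was marked as an outlier by the software and left out, and its value was 3.43 if kept. Against control KD, Lefty2 was 2.15 higher in Tip60 KD (4.44-fold), 2.45 higher in Hdac6 KD (5.47-fold) and 2.50 higher in double KD (5.67-fold), in double KD from 1 array. These values ranked 26, 2 and 3 among the increases over all genes. With the marked spot kept, the difference from control KD in double KD was 2.26.

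The knockdowns were also compared with each other for Lefty2. Its selection used the signal of every knockdown, though not the differences between them. These tests are therefore not free of the selection and are given as a description. Tip60 KD minus Hdac6 KD was -0.30 (95% interval -0.56 to -0.04, adjusted p = 0.118, and 0.0393 with the replicate block). Double KD minus Tip60 KD was 0.35 (95% interval 0.04 to 0.67, adjusted p = 0.235), and double KD minus Hdac6 KD was 0.05 (95% interval -0.27 to 0.37, adjusted p = 0.963). None of the 3 differences passed the threshold without the block. The sign of the last turned to -0.19 when the marked spot was kept.

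**Figure D2:**
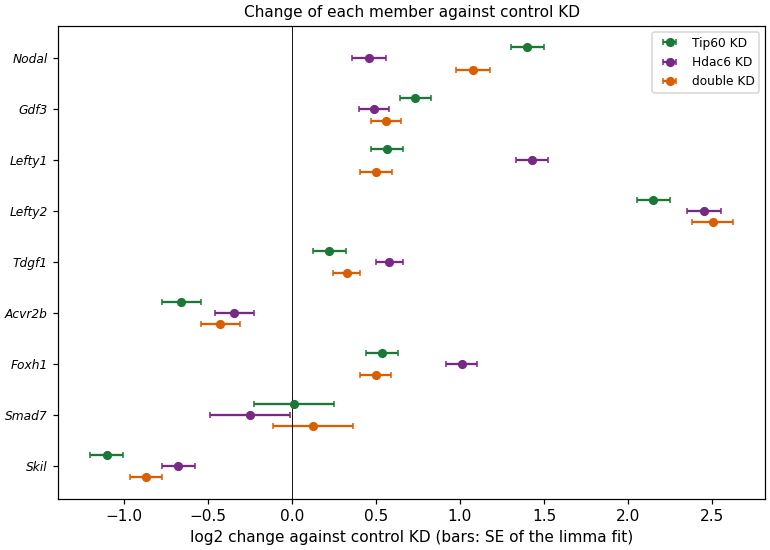
Log2 change of the 9 genes against control KD for each knockdown, with the SE of the limma fit as bars; the Lefty2 values are a description, since the gene was selected on them. Nodal changed most in Tip60 KD (1.40), Lefty1 and Foxh1 most in Hdac6 KD (1.43 and 1.01), and Skil lay between -1.10 and -0.67.

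Of the intracellular inhibitors, Smad7 was not called in any knockdown and Skil fell in all 3. Smad7 blocks the type I receptors. Its signal was 2.59 and 2.30 in control cells, 2.71 and 2.21 after Tip60 knockdown, 2.39 and 2.00 after Hdac6 knockdown, and 2.75 and 2.40 after both. On slide A it was higher than on slide B in every group, by more than most groups differed, and the groups overlapped. The differences from control KD were 0.02 (95% interval -0.57 to 0.60, adjusted p = 0.985) in Tip60 KD, -0.25 (95% interval -0.83 to 0.34, adjusted p = 0.549) in Hdac6 KD and 0.13 (95% interval -0.46 to 0.71, adjusted p = 0.762) in double KD. With the block for the slide, the difference in Hdac6 KD passed the threshold (adjusted p = 0.033), as did Hdac6 KD against Tip60 KD and against double KD (0.0328 and 0.0177). The signs in Tip60 KD and double KD turned when single arrays were left out, with ranges of -0.23 to 0.26 and -0.05 to 0.30. The Smad7 probe has 25.0% G and C, the lowest share of the 13.

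Skil encodes SnoN, a corepressor that binds Smad complexes and whose gene is itself a target of the pathway. Its bright probe was printed 10 times on each array, so that its value is a mean over several spots. The signal was 2.24 and 2.12 in control cells, 1.17 and 0.99 after Tip60 knockdown, 1.56 and 1.45 after Hdac6 knockdown, and 1.35 and 1.27 after both. The groups did not overlap, and the order from high to low was control KD, Hdac6 KD, double KD and Tip60 KD, the reverse of that for Nodal. Skil fell by 1.10 in Tip60 KD (SE 0.10, 0.466 of the control KD level, adjusted p = 0.00119), by 0.67 in Hdac6 KD (adjusted p = 0.00822) and by 0.87 in double KD (adjusted p = 0.0035). Among decreases over all genes these ranked 343, 858 and 417. Tip60 KD minus Hdac6 KD was -0.43 (95% interval -0.67 to -0.19, adjusted p = 0.0353), a call that was lost without Tip60 B, Hdac6 A or Hdac6 B (adjusted p 0.105 to 0.170). Double KD minus Tip60 KD was 0.23 (adjusted p = 0.289, and 0.0422 with the block). Double KD minus Hdac6 KD was -0.19 (adjusted p = 0.353, and 0.0592 with the block). The place of double KD in the order thus rests on differences that were not called without the block.

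Of the 8 genes that could be tested against control KD, 4 rose and 2 fell in Tip60 KD, 5 rose and 2 fell in Hdac6 KD, and 5 rose and 2 fell in double KD. The members' shares of 6, 7 and 7 in 8 thus stand beside 40.4%, 30.0% and 33.7% of all genes, and the members share control arrays across the 3 comparisons. The median change of the 8 was 0.38, 0.47 and 0.41 in the same order, and that of all genes tested was 0.05, 0.02 and 0.05. Each slide by itself gave the same direction for 6 of 7, 8 of 8 and 8 of 8 of these genes. The exception was Smad7 in Tip60 KD. That agreement was not counted over all genes and comes from the arrays that gave the calls, so it is no separate evidence. The replicate block gave 6, 8 and 7 calls where it called 60.3%, 52.9% and 55.4% of all genes.

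Tip60 KD against Hdac6 KD separated 5 of them, Nodal higher in Tip60 KD and Lefty1, Foxh1, Skil and Tdgf1 lower, where 24.1% of all genes were called, 12.1% higher and 11.9% lower. Double KD against Hdac6 KD separated 3, Nodal higher in double KD and Lefty1 and Foxh1 lower, where 10.9% of all genes were called, 5.93% higher and 5.01% lower. Double KD against Tip60 KD separated none of the 8 in limma, where 4.10% of all genes were called. Of these 8 differences, only that of Nodal had an unadjusted p under 0.05 (0.0186), and the block called 4 of the 8, namely Nodal, Gdf3, Acvr2b and Skil, where it called 26.6% of all genes. With the block, all 8 genes were called between Tip60 KD and Hdac6 KD and 6 between double KD and Hdac6 KD, where it called 41.5% and 29.5% of all genes. Gdf3 was counted by its brighter probe. Its second probe was called with the block in the opposite direction in Tip60 KD against Hdac6 KD and in double KD against Tip60 KD.

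**Figure D3:**
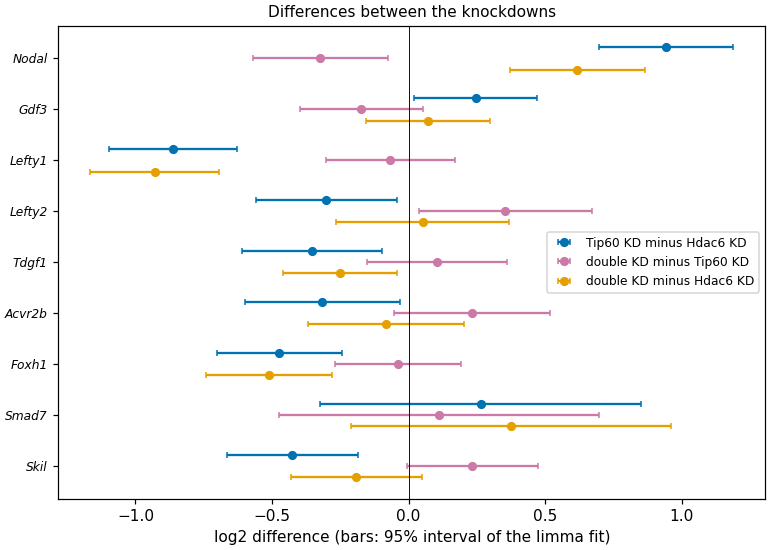
Differences between the knockdowns for the 9 genes on the log2 scale, with the 95% interval of the limma fit as bars. Nodal lies at 0.94 and Lefty1 at -0.86 for Tip60 KD minus Hdac6 KD, and the Lefty1 value for double KD minus Tip60 KD (-0.07) lies at the zero line.

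What happened with both genes depleted can be set against the 2 single changes added together. This interaction term, double KD minus Tip60 KD minus Hdac6 KD plus control KD, was called for 7 of the 8 genes, 2 with a positive and 5 with a negative value, where 23.0% of all genes were called, 12.4% positive and 10.7% negative. By each gene's brightest probe, the term was negative for every gene that rose in both single knockdowns and positive for both genes that fell. Double KD thus lay closer to control KD than the sum of the single changes would. How often this holds over all genes was not counted, and control KD enters the single changes and the term with opposite signs. The pattern is therefore not shown to be particular to these genes. The term is also double KD minus Tip60 KD, called for none of the 8, less the Hdac6 KD change, called for the same 7. The term was -1.50 for Lefty1 (SE 0.14, adjusted p = 0.00691), whose double KD change of 0.50 stood beside single changes of 0.57 and 1.43. It was -1.05 for Foxh1 (adjusted p = 0.0102), -0.78 for Nodal (adjusted p = 0.022), -0.66 for Gdf3 (adjusted p = 0.0268) and 0.91 for Skil (adjusted p = 0.015). In limma with each probe tested on its own, the second Gdf3 probe gave 0.02 (adjusted p = 0.955). A second, dim Skil probe, with control KD at the floor, gave at most -0.61 (adjusted p = 0.0896), opposite in sign to the bright probe. The values for Tdgf1 (-0.48, adjusted p = 0.0738) and Acvr2b (0.57, adjusted p = 0.0698) lay near the threshold. That of Tdgf1 rests on 1 Tip60 KD array, and it was -0.34 with the marked spot kept (adjusted p = 0.203) and -0.28 with the mean of the probes (adjusted p = 0.274). The calls of both genes were also lost with the series matrix (0.230 for Tdgf1, 0.222 for Acvr2b). For Smad7 the term was 0.36 (adjusted p = 0.568, and 0.0352 with the block). For Lefty2 the term was -2.10, a description that uses the control KD values it was selected on. The Hdac6 transcript was less depleted in double KD, by the 0.62 given above, and the part of that difference in these values was not tested.

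Of the 9 genes, 3 were measured by more than 1 probe, and in each the probes differed. These probes are shown because the call of a gene depends on which of them is read. Where the first 30 bases are given, they are the start of a probe of 60 bases.

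Gdf3, brighter probe, chr6:122556340-122556399 (-, mm9), in full: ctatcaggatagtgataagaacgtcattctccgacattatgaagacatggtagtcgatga

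Gdf3, second probe, chr6:122555421-122555480 (-, mm9), first 30 bases: gccaccaccgtctggcttcctggggttttc

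Tdgf1, brightest probe, chr9:110843099-110843158 (-, mm9), first 30 bases: tgatgctcacagtgaatccctaatgttacc

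Tdgf1, middle probe, chr9:110842866-110842925 (-, mm9), first 30 bases: gttattattaaatcccagtgtgcaactgga

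Tdgf1, dimmest probe, chr9:110842722-110842781 (-, mm9), first 30 bases: ctacacagaaaccctgtctcggggagaaaa

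Skil, bright probe, chr3:31021203-31021262 (+, mm9), first 30 bases: tgccaatgcatatagttttatgattaaaat

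Skil, dim probe, chr3:31016390-31016449 (+, mm9), in full: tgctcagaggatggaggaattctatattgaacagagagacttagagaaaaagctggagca

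The second Gdf3 probe, which gave -0.58 and -0.36 in control KD, differed from control KD by 0.02 in Tip60 KD (adjusted p = 0.924), by 0.29 in Hdac6 KD (adjusted p = 0.161) and by 0.34 with both depleted (adjusted p = 0.104), each probe tested on its own. With the block its differences after Hdac6 knockdown and after both were called (adjusted p = 0.00856 and 0.00467). Neither it nor the brighter probe was marked as an outlier on any array. The middle Tdgf1 probe gave 1.69 and 1.59 in control KD and differed by -0.08 in Tip60 KD (adjusted p = 0.700), by 0.36 in Hdac6 KD (adjusted p = 0.0959) and by -0.09 with both depleted (adjusted p = 0.681). The dimmest gave 0.26 and -0.07 in control KD and differed by -0.45, 0.03 and -0.28, with adjusted p-values of 0.107, 0.943 and 0.324. With the block this probe was called lower in Tip60 KD and in double KD (adjusted p = 0.0119 and 0.0644). Hdac6 KD was thus the knockdown in which Tdgf1 passed the test by 2 of its 3 probes, and the increase in double KD was seen by the brightest probe alone. With the mean of the probes in place of the brightest, Tdgf1 differed from control KD by -0.05 in Tip60 KD and -0.01 in double KD.

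The dim Skil probe went against the bright one. It lay at the floor, log2 -2.78, on both control KD arrays, and gave -2.40 and -2.34 after Tip60 knockdown, -2.38 and -2.35 after Hdac6 knockdown, and -2.36 and -2.77 after both. Since the control arrays had only an upper bound, the differences were at least 0.41 (adjusted p = 0.0666), at least 0.42 (adjusted p = 0.0825) and at least 0.22 (adjusted p = 0.318). It was read near background, and the bright probe far above it. With the mean of both probes Skil fell by 0.34 in Tip60 KD, by 0.13 in Hdac6 KD (adjusted p = 0.435) and by 0.32 in double KD, so that the call in Hdac6 KD was lost, and the interaction value was 0.15 (adjusted p = 0.569). The call of Tip60 KD against Hdac6 KD was lost with this mean as well (-0.215, adjusted p = 0.216). The mean weighs a probe at the floor as much as one above it.

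**Figure D4:**
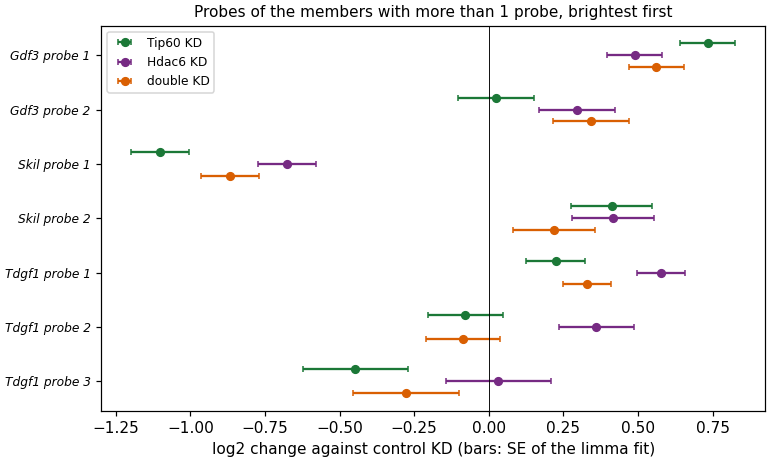
Log2 change against control KD for each probe of Gdf3, Skil and Tdgf1, brightest probe first, with the SE of the limma fit as bars. The brighter Gdf3 probe lies at 0.73 in Tip60 KD and the second at 0.02, the bright Skil probe lies below 0 in every knockdown, and the dim Skil probe is drawn against control arrays at the floor, so that its values are lower bounds.

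Promoter sequence was at hand for 3 of the 9 genes, Nodal, Tdgf1 and Acvr2b, in RefSeq's build GRCm38.p6. The Nodal and Tdgf1 promoters are printed because the ligand and its co-receptor were called higher in Hdac6 KD and double KD. In double KD, Tdgf1 was higher by its brightest probe alone. Foxh1 was higher in both knockdowns as well, and its part in these changes was not tested. Capitals mark matches, on either strand, to AATNNACA, a loose form of the Foxh1 motif, and to CAGAC, a short form of the Smad-binding element. N stands for any base, so a match need not fit a stricter form of the motif. The motifs do not overlap each other here. Each sequence holds the 250 bases before the start of the gene.

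Nodal, chr10:61417722-61417971 (+): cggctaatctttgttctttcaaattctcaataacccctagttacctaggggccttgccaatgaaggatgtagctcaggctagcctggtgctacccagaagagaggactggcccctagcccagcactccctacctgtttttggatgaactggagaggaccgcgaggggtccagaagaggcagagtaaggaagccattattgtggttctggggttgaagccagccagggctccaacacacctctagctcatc

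Tdgf1, chr9:110946159-110946408 (-): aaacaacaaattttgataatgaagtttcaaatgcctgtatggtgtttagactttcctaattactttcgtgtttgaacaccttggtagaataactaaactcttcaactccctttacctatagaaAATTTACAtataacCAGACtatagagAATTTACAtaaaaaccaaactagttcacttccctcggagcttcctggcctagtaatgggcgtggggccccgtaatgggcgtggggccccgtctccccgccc

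The Tdgf1 promoter held 2 matches to AATNNACA, starting 127 and 101 bases before the gene's start, with 1 match to CAGAC between them, 113 bases before it. The Nodal window held neither motif, and that of Acvr2b held 1 CAGAC on the reverse strand. Of 32851 promoters of the same length, 10.9% held AATNNACA and 42.2% CAGAC. A match of this kind describes the letters only, and binding was not measured here.

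The surrounding pathway was described through 40 other genes of Nodal, activin and TGF-beta signalling, grouped by role, of which 26 passed the filter on low signals. Of these 26, 5 rose and 8 fell in Tip60 KD, 3 rose and 5 fell in Hdac6 KD, and 5 rose and 5 fell in double KD. These shares lie close to those of all genes given above. The median changes were -0.04, 0.08 and 0.03, beside 0.05, 0.02 and 0.05 over all genes. With the replicate block 17, 13 and 15 of the 26 were called, where it called 60.3%, 52.9% and 55.4% of all genes.

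Among ligands and the convertases that cleave them, Inhbb, which encodes a chain of activin B, rose in all 3 knockdowns. Its signal was -0.97 and -1.13 in control cells, 0.37 and 0.42 after Tip60 knockdown, -0.05 and -0.03 after Hdac6 knockdown, and 0.42 and 0.39 after both. The increases were 1.45 (SE 0.08, adjusted p = 0.000574), 1.01 (adjusted p = 0.00211) and 1.46 (adjusted p = 0.000923). Pcsk6, a convertase of Nodal, rose by 0.60 in Tip60 KD (adjusted p = 0.00195) and by 0.73 in double KD (adjusted p = 0.00203), and Furin, another convertase, fell by 0.74 in Tip60 KD (adjusted p = 0.0165) and by 0.50 in double KD (adjusted p = 0.0701). In Hdac6 KD they differed by 0.17 (adjusted p = 0.125) and -0.40 (adjusted p = 0.132), both called with the block (0.0423 and 0.00872). Ligands and convertases together counted 2 up and 2 down of 5 in Tip60 KD, 1 up of 5 in Hdac6 KD, and 2 up and 2 down of 5 in double KD.

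Of 4 receptors and co-receptors tested, 3 fell in Tip60 KD, 2 fell in Hdac6 KD, and 1 rose and 1 fell in double KD. Tgfbr1, a type I receptor for TGF-beta, fell by 0.87 in Tip60 KD (adjusted p = 0.00185) and by 0.80 in double KD (adjusted p = 0.00364), and in Hdac6 KD it differed by -0.16 (adjusted p = 0.282). Cfc1, which encodes the second co-receptor of the Cripto family, fell by 0.71 in Hdac6 KD (adjusted p = 0.00883) and rose by 0.35 in double KD (adjusted p = 0.0635), and in Tip60 KD it differed by -0.04 (adjusted p = 0.849). Among 5 Smads and cofactors, 1 rose and 2 fell in Tip60 KD, 1 fell in Hdac6 KD, and 1 rose and 1 fell in double KD. Smad2, which the activated receptors phosphorylate, rose by 0.55 in Tip60 KD (adjusted p = 0.0489) and by 0.65 in double KD (adjusted p = 0.0368), and in Hdac6 KD it differed by 0.43 (adjusted p = 0.121, and 0.00364 with the block). Trim33, a ubiquitin ligase that binds Smad2 and Smad3, fell by 1.40 (SE 0.17, adjusted p = 0.00288), by 0.84 (adjusted p = 0.0226) and by 1.15 (adjusted p = 0.0077), in each knockdown the largest decrease of the list.

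Of 8 inhibitors, 1 rose and 1 fell in Tip60 KD, 2 rose and 2 fell in Hdac6 KD, and 1 rose and 1 fell in double KD. Dact2, which limits Nodal signalling by sending its receptors to degradation, rose by 0.30 (adjusted p = 0.0472), 0.53 (adjusted p = 0.0112) and 0.45 (adjusted p = 0.0163), in the order Tip60 KD, Hdac6 KD, double KD. Drap1, a corepressor that binds Foxh1, fell in the same order by 0.61 (adjusted p = 0.0161), 0.43 (adjusted p = 0.066) and 0.48 (adjusted p = 0.046). Tgif2, a homeobox corepressor that binds Smads, rose by 0.32 in Hdac6 KD (adjusted p = 0.0578). Smurf1, a ubiquitin ligase for receptors and Smads, fell by 0.71 in Hdac6 KD (adjusted p = 0.0786). The inhibitors thus held members in both directions in every knockdown.

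Of 4 targets of the pathway that were tested, Eomes was called, in Tip60 KD, and the other 3 were called in no knockdown. Of those 3, Pmepa1 lay at the floor on 5 arrays and Fgf8 on 2, and Lhx1 had an SE of 0.31. Their lack of a call therefore does not show that they were unchanged. Eomes, a T-box gene of early mesendoderm, rose by 0.83 in Tip60 KD (adjusted p = 0.0088) and differed by 0.16 (adjusted p = 0.515, and 0.0533 with the block) in Hdac6 KD and 0.32 (adjusted p = 0.171, and 0.00548 with the block) in double KD. T, Mixl1, Gsc and Foxa2, other genes of that step, did not pass the filter on low signals.

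**Figure D5:**
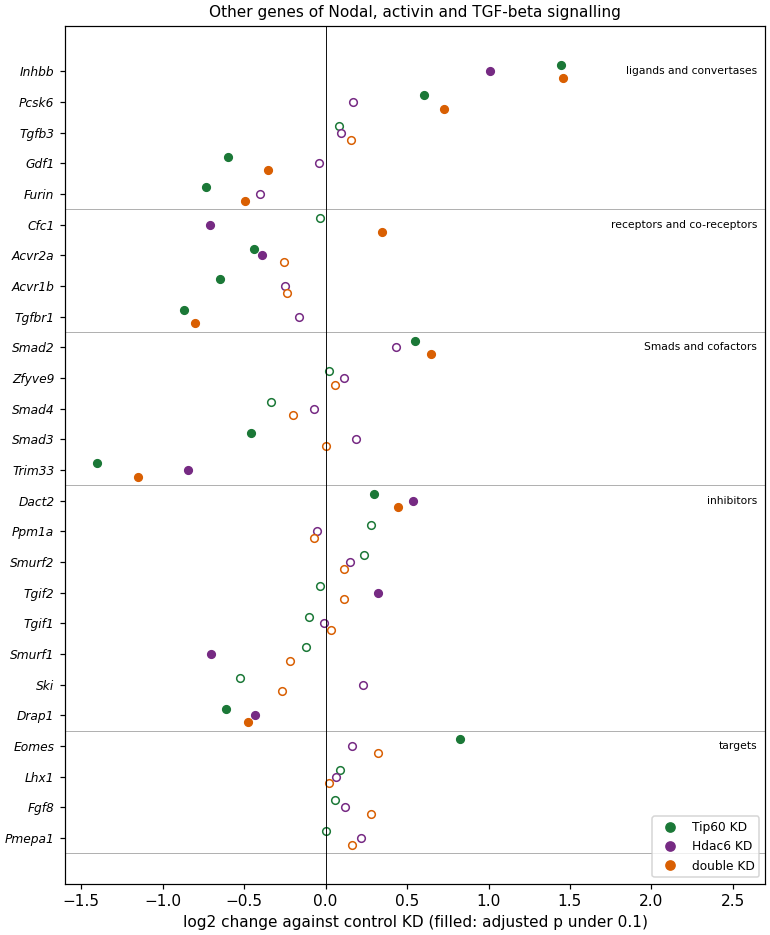
Log2 change against control KD of the 26 tested pathway genes that are not among the 9, grouped by role, with filled points for an adjusted p under 0.1 in limma. Inhbb lies at 1.45, 1.01 and 1.46 and Trim33 at -1.40, -0.84 and -1.15.

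Markers of other cell types were counted in the same way. Of 5 mesendoderm markers only Eomes was measured, and none of 4 trophectoderm markers. Of 6 primitive endoderm markers 2 were tested and of 4 neuroectoderm markers all 4, and none of those was called in any knockdown without the block. With it, Zic1, a neuroectoderm marker, was called in all 3, at differences of 0.55, 0.55 and 0.43 (adjusted p = 0.00809, 0.0108 and 0.0218). Pax6 was called with the block in Tip60 KD at 0.16 (adjusted p = 0.0641). It lay at the floor on 6 of 8 arrays, both control KD arrays among them. Sox17 and Neurog2 lay at the floor on 5 arrays and Gata4 on 3, so little can be read from their lack of a call. Of 6 fibroblast markers 3 were tested, and 2 of them, Col1a1 and Thy1, were called higher in Tip60 KD and in double KD. None was called in Hdac6 KD, where Col1a1 differed by -0.28 (adjusted p = 0.268, and 0.0661 with the block). With the block, Col3a1 was called higher in Tip60 KD, at 0.17 (adjusted p = 0.093). Col1a1 lay at the floor on both Hdac6 KD arrays, and Col3a1 on 3 arrays, both control KD arrays among them. The summed fibroblast signal was 1.60 to 1.82 times the 75th percentile in control KD, 2.21 to 2.63 in Tip60 KD, 1.69 to 1.76 in Hdac6 KD and 2.33 to 2.60 in double KD, and its part in the changes of the 9 genes was not tested.

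Outside the pathway, the genes whose pattern was most like that of Lefty2 were sought among 2885 genes above the floor on all 8 arrays with a range of at least 1 log2 unit, by Pearson's correlation over the 7 arrays with a Lefty2 value. They were Krt17 (r = 0.9994), Myadm (r = 0.9953), Jade2 (r = 0.9947), Ttc30a1 (r = 0.9932) and Zfp819 (r = 0.9927). The arrays share the split between control KD and knockdown that Lefty2 was selected on, and r is given as a description. The differences of these genes from control KD lay between 0.94 and 1.89 in all 3 knockdowns, below those of Lefty2, and none belongs to the 9 genes or to the pathway list.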

How the data were processed

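Per the methods, each RNA was made into Cy3-labelled cRNA for 1-colour Agilent arrays. The deposited scanner values are fluorescence intensity per spot, and per the file headers Feature Extraction 10.7.1.1 had subtracted background from the processed signal without scaling arrays to each other. The deposited series matrix holds log2 values, used as an alternative. The processed signal was divided by each array's 75th percentile, spots marked as outliers were left out, spots of a probe averaged, a common floor (0.145 of the percentile) set and log2 taken. Probes had to exceed both background and floor on 2 arrays or more, and the probe of highest mean stood for its gene. Of all values, 8.85% lay at the floor. limma 3.58.1 (R 4.3.3) fitted all 4 groups without a block, 2-sided, with 4 residual degrees of freedom, so the number of arrays limits the precision.

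Each slide held 1 array per group, and differences between A and B correlated between groups (r 0.651 to 0.799 across genes), so the fit that takes the replicate letter as a block is given where it changed the call of a member or of a pathway gene named, or as counts. Position on the slide and group cannot be told apart. Members, lists and tests were chosen with earlier results of these data known. Pathway genes named are the 3 largest called increases and decreases per knockdown and those called alike in all 3. Some further pathway genes are not reported here and were left out of the list and its counts. Figures were drawn with matplotlib 3.10.9 in Python 3.11.15.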

Additional observations from a re-analysis of the deposited data

Results flagged for a closer look

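For 7 of the 8 genes tested, the effect of one knockdown differed with the other knockdown present, by the test of the interaction term in limma. This term is double KD minus Tip60 KD, called for none of the 8, less the Hdac6 KD change. The Hdac6 KD change was called for the same 7 genes, so the term is not a result separate from it. Hdac6 signal fell by 1.88 with both depleted and by 2.50 in Hdac6 KD. The part of that gap in the term was not tested. After both knockdowns, the change minus the summed single changes was -1.50 for Lefty1 (adjusted p = 0.00691), -1.05 for Foxh1 (adjusted p = 0.0102), -0.78 for Nodal (adjusted p = 0.022), -0.66 for Gdf3 (adjusted p = 0.0268), -0.48 for Tdgf1 (adjusted p = 0.0738), 0.57 for Acvr2b (adjusted p = 0.0698) and 0.91 for Skil (adjusted p = 0.015). The same 2 control KD arrays enter every one of these terms, and over all genes 23.0% were called. With 1 array left out at a time, the call of Acvr2b was lost for every array but double A (adjusted p up to 0.182) and that of Tdgf1 for each control KD, Hdac6 KD and double KD array (adjusted p up to 0.199), and the other 5 genes kept theirs. Tdgf1 had 1 Tip60 KD array, and with the marked spot kept its value was -0.34 (adjusted p = 0.203). The values above are those of each gene's brightest probe. In limma with each probe tested on its own, the second Gdf3 probe gave 0.02 (adjusted p = 0.955). The dim Skil probe, with control KD at the floor, gave at most -0.61 (adjusted p = 0.0896).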

How the results depend on the processing

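The counts of genes called were recomputed under every alternative, and of 199 such counts 174 stayed within 1.5 times the value reported. With the replicate block, the arrays being paired by slide, the members called became 8 for Tip60 KD against Hdac6 KD. They became 6 for double KD against Hdac6 KD and 4 for double KD against Tip60 KD. In the same order the block called 41.5%, 29.5% and 26.6% of all genes. Pathway genes called became 13 in Hdac6 KD and 15 in double KD, where the block called 52.9% and 55.4% of all genes. With only the arrays compared in the fit, 3 members were called for Tip60 KD against Hdac6 KD and 0 for double KD against Hdac6 KD, and 5 pathway genes in Hdac6 KD. Where 8 pathway genes were reported as called in Hdac6 KD, quantile normalisation gave 4, and normexp with quantile normalisation and the series matrix 5 each. No filter on dim probes gave 5 in double KD. Leaving out 1 array at a time gave 2 to 5 members for Tip60 KD against Hdac6 KD, 1 to 3 for double KD against Hdac6 KD, 4 to 6 pathway genes in Hdac6 KD and 6 to 9 in double KD.

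Of 1521 values of single genes, 88 lost their call, 17 gained one and 17 changed sign. The changes of sign were these. For the difference of double KD from Hdac6 KD, Lefty2 became -0.11 with the series matrix, -0.19 with outlier-marked spots kept (an alternative added after seeing the data) and ranged from -0.0389 to 0.141 without single arrays, and Acvr2b ranged from -0.185 to 0.019. For double KD against Tip60 KD, single arrays left out gave -0.115 to 0.0376 for Foxh1, -0.14 to 0.36 for Smad7 and -0.10 to 0.21 for Kat5. Kat5 ranged from -0.263 to 0.0539 in the interaction. Against control KD, Smad7 ranged from -0.23 to 0.26 in Tip60 KD and from -0.0488 to 0.300 in double KD. With the mean of the probes, Gdf3 became -0.0125 for Tip60 KD against Hdac6 KD and 0.0718 for double KD against Tip60 KD, and Tdgf1 -0.0518 in Tip60 KD and -0.0119 in double KD, because its dimmer probes enter. None of these values had been called except that of Tdgf1 in double KD. The cause of the other changes was not tested. A fit of only the arrays compared could not be made for the interaction.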
